A study of Mus musculus with 18 samples.

Results

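The cytosolic iron-sulfur assembly genes make up the machinery that builds iron-sulfur clusters outside mitochondria and hands them to cytosolic and nuclear enzymes. The 9 genes described here were chosen by name: Ciapin1, Ndor1, Nubp1, Nubp2, Ciao1, Ciao2a, Ciao2b, Ciao3 and Mms19, out of 55471 Ensembl gene IDs in the oocyte files. Ciao3 is listed there under its older symbol Narfl, and all 9 genes were found. A second ID that carries the symbol Ndor1 had 1.65 counts in 1 library and 0 in the other 5, and was left out.

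Messenger RNA was measured in mouse MII oocytes, the mature eggs that wait for fertilization in meiosis II, in 3 libraries labelled Isca2 -/- (KO) and 3 wild-type (WT) libraries. The product of Isca2 works in mitochondria, where it helps to make [4Fe-4S] clusters, and the series is titled for an interaction of ISCA2 with the TET enzymes around implantation. The series holds 18 samples in 7 groups. Its sperm small RNA and blastocyst methylation samples were not used here. The labels give no strain or age, do not say which part of Isca2 was changed, and do not say how Isca2 -/- oocytes were obtained. The protocol text describes hormone-primed Isca2+/- females crossed to Isca2+/- males and E4.5 blastocysts. Per the labels' protocols, cDNA was amplified from total RNA with a full-length single-cell kit. No label says that replicates came from separate females or how many oocytes went into each, so the p-values reflect only how these libraries vary, which may be technical.

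The libraries held 17792157 to 30240350 expected counts. Isca2 itself had 53, 56 and 120 expected counts in the libraries labelled KO, against 14, 11 and 152 in WT replicates 1, 2 and 3, so its RNA was not lower under the KO label (log2 fold change of KO over WT 0.59, SE 0.89, adjusted p = 0.907, edgeR). Without WT replicate 3 that value was 2.48 (SE 0.55, adjusted p = 0.0969, edgeR). Directions below are drawn between libraries as labelled. The 12 oocyte markers summed to 19160 to 20640 CPM (counts scaled to library size) in the libraries labelled KO and 20250 to 20760 CPM in WT, but single markers moved: Zp2, an egg coat gene, had 197, 149 and 132 CPM in the libraries labelled KO and 602, 111 and 2135 CPM in WT. Zp1, Zp2 and Zp3 were 2.79-, 5.98- and 4.05-fold higher in WT replicate 3 than in the mean of the other WT libraries. The 10 macrophage and leukocyte markers summed to 5.93 to 9.78 CPM in the libraries labelled KO and to 8.05 and 7.25 CPM in WT replicates 1 and 2, but to 909 CPM in WT replicate 3. In that library Adgre1 had 8380 counts and Ptprc 3234, and in the other 5 libraries each had between 0 and 13. The list was not uniform: Cd68 and C1qb had 31 to 121 counts in each of the other 5 libraries and 192 and 518 in WT replicate 3, while C1qa had 0 in those 5 and 9 in WT replicate 3. The 10 granulosa and cumulus markers summed to 114 to 297 CPM in the libraries labelled KO and to 58.7 to 82.7 CPM in WT. Cyp19a1 had 56.9 ± 4.36 CPM in the libraries labelled KO and 59.9 ± 7.54 CPM in WT (SD, n = 3 each), while Inha had 5, 78 and 1036 counts in the libraries labelled KO against 130, 3 and 8 in WT. Both overlapped between groups, but 5 of the 8 granulosa markers tested did not (Gja1, Inhbb, Fst, Hsd17b1 and Fshr). All 5 were higher in the libraries labelled KO, a separation seen for 6.47% of all tested genes. Gja1, a gap junction gene, had 37.7, 112 and 125 CPM in the libraries labelled KO and 9.86, 0.389 and 0.103 CPM in WT. Of the 8, 7 log2 fold changes were positive (median 4.05). In 6 libraries edgeR called 0 of the 8, beside 0.0146% of all tested genes. Without WT replicate 3 it called 1 (Inhbb), beside 0.651% of all tested genes. The 5 red blood cell markers, which include Hba-a1 and Hba-a2, summed to at most 1.16 CPM in any library. The part of these other cell types in the results below was not tested. In bulk RNA such as this, fewer cells of a type and less RNA per cell cannot be told apart.

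Assembly in the cytosol depends on a sulfur-containing compound made in mitochondria. CIAPIN1 and NDOR1 supply electrons, and the NTPases NUBP1 and NUBP2 form the scaffold on which the cluster is built. CIAO3 carries the cluster on to a targeting complex of CIAO1, CIAO2B and MMS19, which docks on client enzymes such as DNA polymerases and helicases. CIAO2A pairs with CIAO1 in a separate branch that matures iron regulatory protein 1, the product of Aco1.

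The 9 genes spanned a wide range of levels, and the order of the abundant ones was the same in every library. Levels between genes are compared in TPM, which are scaled to transcript length and library size. Ciao2b was the most abundant, with 416, 351 and 414 TPM in the libraries labelled KO and 342, 366 and 257 TPM in WT. Ciapin1 followed with 132, 147 and 136 TPM in the libraries labelled KO and 163, 149 and 134 TPM in WT. Ciao2a came next with 81.2, 80.6 and 64.6 TPM in the libraries labelled KO and 62.5, 67.6 and 66.4 TPM in WT. Nubp2 had 18.5, 16.7 and 16.9 TPM in the libraries labelled KO and 21.2, 17.9 and 18.6 TPM in WT. In each of the 6 libraries Ciao2b lay above Ciapin1, Ciapin1 above Ciao2a, Ciao2a above Nubp2 and Nubp2 above Ciao1. The ranges of these neighbours did not overlap.

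The lower places in the order were not separated. Median TPM over the 6 libraries was 5.74 for Ciao1, 3.2 for Mms19, 1.61 for Nubp1, 1.55 for Ndor1 and 0.395 for Ciao3. Ciao1 exceeded Mms19 in 5 libraries, Mms19 exceeded Nubp1 in 4, Nubp1 exceeded Ndor1 in 5 and Ndor1 exceeded Ciao3 in 5, and the ranges of all these neighbours overlapped. Single libraries departed from this part of the order. In WT replicate 3, Mms19 was last of the 9, with 2.1 TPM, and Ciao3 had rank 7 with 2.74 TPM. Mms19 was about as low in WT replicate 1, with 2.17 TPM at rank 6. In KO replicate 2, Nubp1 had rank 5 and Ciao1 rank 7, and in WT replicate 1 Ndor1 lay above Nubp1. Among the 13680 genes tested, the median TPM of Ciao2b lay at percentile 96.8, that of Ciapin1 at 92, that of Ciao2a at 85.5, and that of Ciao3 at 6.88. The 9 genes together summed to 661, 610 and 642 TPM in the libraries labelled KO and 599, 615 and 495 TPM in WT. Ciao2b alone made up 57.6% to 64.4% of that sum in the libraries labelled KO and 52% to 59.5% in WT.

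**Figure D1:**
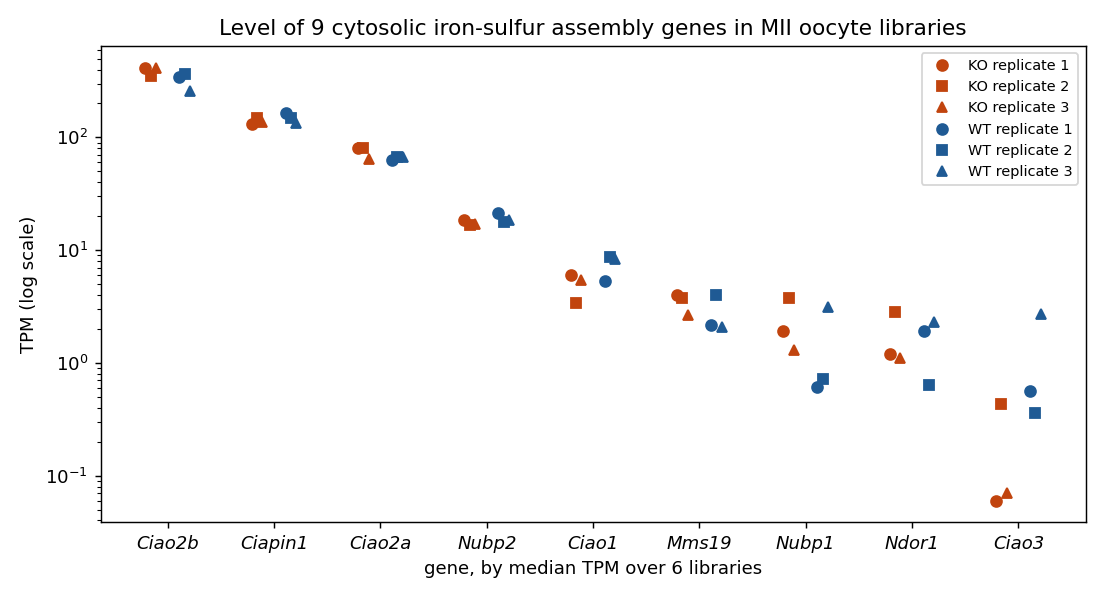
TPM of each gene (vertical axis, log scale) in every library, with genes ordered along the horizontal axis by their median over the 6 libraries. Orange points are libraries labelled KO and blue points WT libraries. Ciao2b sits at 257 to 416 TPM and Ciao3 at 0.06 to 2.74 TPM, with WT replicate 3 highest for Ciao3.

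The sequences upstream of the most and the least abundant gene are shown as the ends of this range. They are the 250 bases before the RefSeq start on GRCm38.p6, read 5′ to 3′ on the gene's strand. Ciao2b lies on the minus strand (chr8:104641729-104641978) and Ciao3 on the plus strand (chr17:25773526-25773775), and the libraries do not show which start was used in oocytes. Capitals mark matches, on either strand, to any of 6 short motifs searched.
Ciao2b: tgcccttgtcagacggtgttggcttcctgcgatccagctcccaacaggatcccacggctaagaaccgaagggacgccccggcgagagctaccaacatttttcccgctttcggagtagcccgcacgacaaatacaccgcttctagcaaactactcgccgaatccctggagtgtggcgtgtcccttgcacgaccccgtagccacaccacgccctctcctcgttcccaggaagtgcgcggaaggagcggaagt
Ciao3: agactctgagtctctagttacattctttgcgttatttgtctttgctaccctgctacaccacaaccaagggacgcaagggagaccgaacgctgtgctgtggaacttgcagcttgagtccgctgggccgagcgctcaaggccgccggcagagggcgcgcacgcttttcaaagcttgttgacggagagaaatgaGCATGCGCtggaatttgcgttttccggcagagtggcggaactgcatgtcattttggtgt
RefSeq lists 12 such windows for the 9 genes (3 for Nubp2, 2 for Mms19), and motifs are counted in the first listed window of each gene. None of these 9 windows held TATAAA, the letters of the TATA box, which 12.4% of 32851 such windows of mouse genes held. The GC box letters GGGCGG were found for 5 of the 9 genes (Ciapin1, Ndor1, Nubp2, Ciao1 and Mms19) and in 32.7% of all windows. The letters CCAAT were found for Nubp1, Nubp2 and Mms19 and in 33.8% of all windows. The core of NRF1 sites, GCATGCGC, was found for Ciao3 alone among the 9 (2.26% of all windows). The letters searched for ETS sites, CCGGAAG, were found for Ciao1 (6.91% of all windows), and those for YY1 sites, AAGATGG, for Ciapin1 (4.49%). The Ciao2b window held none of the 6 exactly as spelled here, and shorter or variant forms were not searched. CpG dinucleotides numbered 10 (a window of Nubp2) to 29 (Ciapin1) in the 12 windows, beside a median of 6 over all windows, with 22 for Ciao2b and 17 for Ciao3. These matches describe letters in a window and say nothing of binding.

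None of the 9 genes passed the test between the labelled genotypes. In edgeR's quasi-likelihood test across 13680 genes, 0 of the 9 had an adjusted p (Benjamini-Hochberg) under 0.05, where 0.0146% of all tested genes were called. At an unadjusted p under 0.05, 1 of the 9 (Ciao3, lower in the libraries labelled KO) stood beside 6.19% of all tested genes. DESeq2 called 0 of the 9 with 0.738% of all genes called, and limma-voom called 0 with 0.0146%. Without WT replicate 3, edgeR again called 0 of the 9 with 0.651% of all genes called. Of the 9 log2 fold changes of KO over WT, 5 were positive and 4 negative, with a median of 0.03 beside -0.04 over all genes tested. In CPM, groups did not overlap with the libraries labelled KO lower for 1 of the 9 (Ciao3), as for 5.96% of all tested genes, and with KO higher for 0 of the 9, as for 6.47%.

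Neither gene of the electron transfer pair differed beyond the spread between libraries, and Ciapin1 was measured far more precisely than Ndor1. Ciapin1 (ENSMUSG00000031781, chromosome 8, 94819818 to 94838830, GRCm38.p6), also called anamorsin, had 160, 185 and 180 CPM in the libraries labelled KO and 183, 185 and 145 CPM in WT. Its fold of KO over WT was 1.02 with a 95% interval of 0.824 to 1.27 (log2 fold change 0.03, SE 0.13). Ndor1 (ENSMUSG00000006471, chromosome 2, 25244813 to 25255509), the flavoprotein that passes electrons from NADPH to CIAPIN1, had 1.97, 4.25 and 1.44 CPM in the libraries labelled KO and 2.89, 1.07 and 3.43 CPM in WT. These rest on 22 to 99.4 counts per library, and the fold of 1.03 has an interval of 0.383 to 2.79. The interval for Ndor1 thus takes in more than a doubling, which that for Ciapin1 does not.

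The scaffold genes were unequal in level, with Nubp2 above Nubp1 in all 6 libraries. Nubp2 (ENSMUSG00000039183, chromosome 17, 24882611 to 24886350) had 14.5, 13.3 and 14.1 CPM in the libraries labelled KO and 16.9, 14.2 and 13.3 CPM in WT, a fold of 0.943 (interval 0.682 to 1.31). Nubp1 (ENSMUSG00000022503, chromosome 16, 10411884 to 10424453) had 0.876, 3.47 and 1.90 CPM in the libraries labelled KO and 0.876, 0.778 and 4.21 CPM in WT. WT replicate 3 was 5.09-fold above the mean of the other WT libraries for Nubp1, and 7.39% of tested genes were at or above that ratio. The Nubp1 log2 fold change was 0.08 (SE 0.82) in 6 libraries and 1.32 (SE 0.71, adjusted p = 0.537, edgeR) without WT replicate 3. Leaving out each of the other libraries in turn gave values from -0.48 (without KO replicate 2) to 0.46 (without KO replicate 1). The sign was negative without WT replicate 1 (-0.26) and without WT replicate 2 (-0.29) as well. The TPM ratio of Nubp1 to Nubp2 was 0.104, 0.226 and 0.0762 in the libraries labelled KO and 0.0288, 0.0402 and 0.167 in WT.

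Ciao3, the factor between scaffold and targeting complex, had the largest log2 fold change of the 9 and the fewest reads. Ciao3 (ENSMUSG00000002280, chromosome 17, 25773776 to 25783332) had 2, 11 and 3 expected counts in the libraries labelled KO and 20, 14 and 129.7 in WT replicates 1, 2 and 3. On the CPM scale these were 0.0876, 0.616 and 0.106 in the libraries labelled KO and 0.876, 0.681 and 4.47 in WT. Every library labelled KO lay below every WT library, though KO replicate 2 and WT replicate 2 were close, with 95% Poisson counting intervals of 0.307 to 1.10 and 0.372 to 1.14 CPM. In TPM the groups overlapped, with 0.06, 0.43 and 0.07 in the libraries labelled KO and 0.56, 0.36 and 2.74 in WT. By edgeR, KO over WT was -2.94 on the log2 scale (SE 1.11, adjusted p = 0.766), and -1.56 (SE 1.13, adjusted p = 0.687) without WT replicate 3. Summed over libraries, 16 counts in the 3 libraries labelled KO against 34 in WT replicates 1 and 2 gave a ratio of 0.296 (95% interval 0.152 to 0.551, exact binomial, counting error only). KO replicate 2 held 11 of the 16 counts. For the same libraries the 95% interval of edgeR, which takes in the spread between libraries, was -4.09 to 0.98 on the log2 scale.

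By gene span, introns included, Ciao3 overlaps Haghl, a gene on the opposite strand, over 3490 bases. Shared exon bases were not measured for this overlap or for those below. Between the groups Haghl had more counts where Ciao3 had fewer. Within a group this did not hold, since WT replicate 3 had the most of both genes in WT and KO replicate 1 the fewest of both among the libraries labelled KO. Haghl, picked out after its values were seen, had 9, 17 and 17 counts in the libraries labelled KO and 0, 0 and 3.3 in WT. Whether the counting used strand is not stated in the sources used here. Without strand the reads of Ciao3 and Haghl cannot be told apart where their exons overlap. With the counts of both genes added, the libraries labelled KO had 11, 28 and 20 counts and WT had 20, 14 and 133. The groups then overlapped. The sum gave -1.17 on the log2 scale (SE 0.88, adjusted p = 0.807, edgeR) in 6 libraries and 0.225 (SE 0.83, adjusted p = 0.962) without WT replicate 3. Nubp1 overlaps Tvp23a, for which the tables used here list no strand, over 4921 bases, and Tvp23a had at most 1 count in any library. The other members with a known neighbour on the opposite strand share shorter stretches: 418 bases for Ciapin1 and Coq9, 398 for Mms19 and Zdhhc16, 369 for Nubp2 and Spsb3 and 71 for Ndor1 and Tmem203. No sums were made for these.

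**Figure D2:**
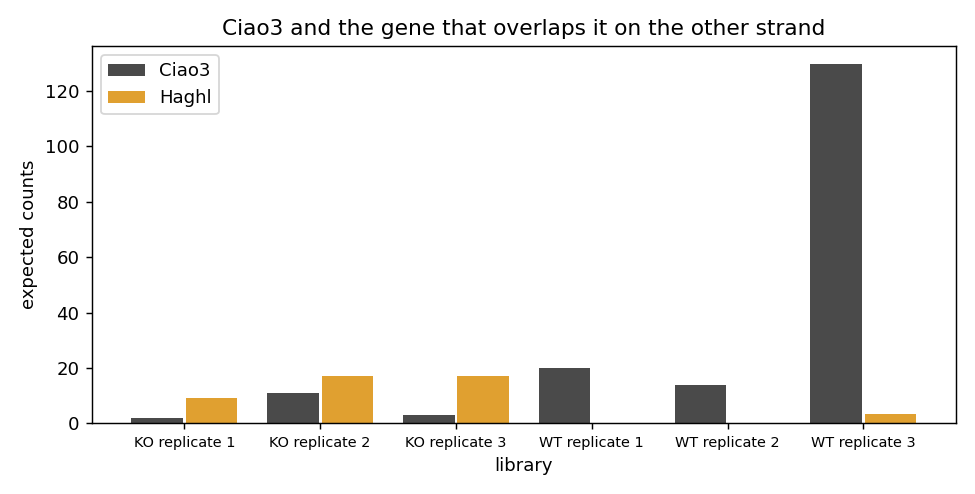
Expected counts (vertical axis) of Ciao3 and of Haghl, which overlaps it on the other strand, in the 6 libraries, with those labelled KO on the left. Ciao3 is at 2 to 11 counts where Haghl is at 9 to 17 (libraries labelled KO), and at 14 to 129.7 where Haghl is at 0 to 3.3 (WT).

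Both CIAO2 paralogs averaged higher in the libraries labelled KO than in WT, without passing the test. Ciao2b (ENSMUSG00000031879, chromosome 8, 104639839 to 104641728), the adaptor for nuclear and cytosolic clients, had 216, 181 and 226 CPM in the libraries labelled KO and 168, 195 and 117 CPM in WT. WT replicate 3 was lowest, and KO replicate 2 lay below WT replicate 2, so the groups overlapped. The log2 fold change was 0.38 (95% interval -0.09 to 0.84, adjusted p = 0.767, edgeR), and 0.19 without WT replicate 3. Ciao2a (ENSMUSG00000032381, chromosome 9, 66126596 to 66138968) had 64.3, 63.7 and 54.8 CPM in the libraries labelled KO and 47.5, 55.0 and 47.0 CPM in WT. The groups overlapped only in that KO replicate 3 lay just below WT replicate 2. The fold was 1.22 (interval 0.984 to 1.52, adjusted p = 0.766, edgeR), and 1.19 without WT replicate 3, with an adjusted p of 0.561. The TPM ratio of Ciao2a to Ciao2b was 0.195, 0.230 and 0.156 in the libraries labelled KO and 0.183, 0.185 and 0.258 in WT, so Ciao2b was the higher paralog in all 6 libraries.

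The 2 remaining members of the targeting complex were low and did not differ beyond their spread. Ciao1 (ENSMUSG00000003662, chromosome 2, 127240938 to 127247816), the propeller protein that both CIAO2 paralogs bind, had 11.1, 6.77 and 7.83 CPM in the libraries labelled KO and 5.34, 8.41 and 12.4 CPM in WT. Its fold was 0.981 (interval 0.532 to 1.81). Mms19 (ENSMUSG00000025159, chromosome 19, 41943707 to 41981164), the large docking subunit for DNA enzymes, had 6.55, 5.88 and 3.61 CPM in the libraries labelled KO and 5.93, 5.96 and 5.58 CPM in WT. Its fold was 0.917 (interval 0.542 to 1.55). KO replicate 3 was the only library that stood away from the others for Mms19.

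**Figure D3:**
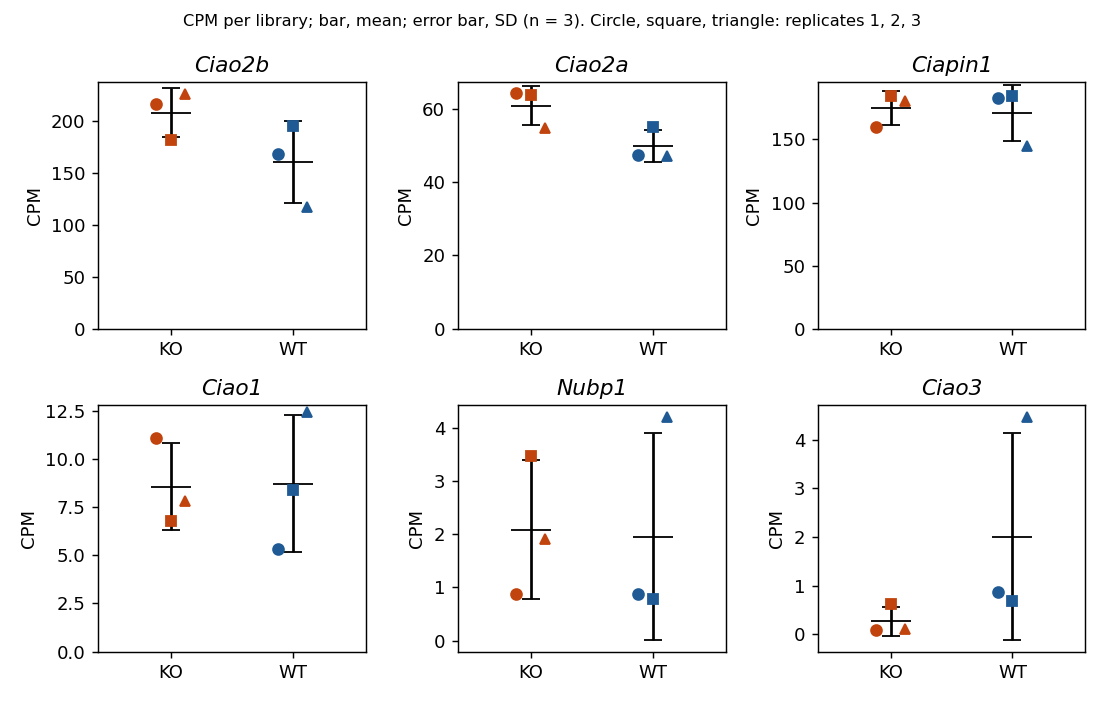
CPM (vertical axes, from 0 or just below it) of 6 of the genes in each library, with libraries labelled KO in orange on the left and WT in blue on the right; horizontal bars are means and error bars SD (n = 3 each). Ciao2a and Ciao2b average 60.9 and 208 CPM in the libraries labelled KO against 49.8 and 160 CPM in WT, and WT replicate 3 (triangle) is the highest WT point for Ciao1, Nubp1 and Ciao3.

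**Figure D4:**
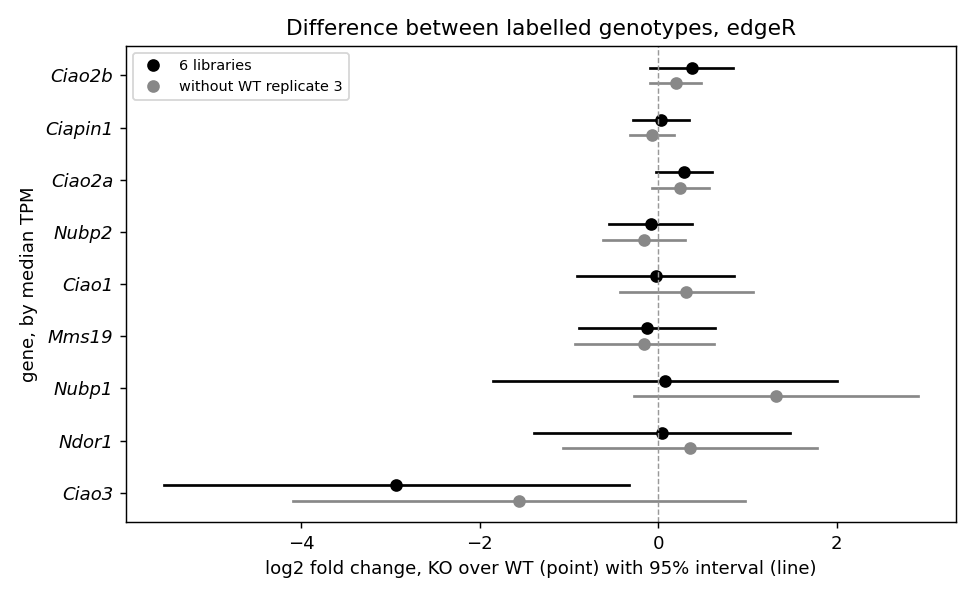
Log2 fold change of KO over WT (horizontal axis) with its 95% interval for each gene, in 6 libraries (black) and without WT replicate 3 (grey). Intervals are narrow for Ciao2b, Ciapin1, Ciao2a and Nubp2, and only that of Ciao3 in 6 libraries (-5.54 to -0.33) lies on 1 side of 0, before adjustment for the 13680 genes tested.

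WT replicate 3 lay above the other WT libraries for some members and below them for others. Its CPM relative to the mean of WT replicates 1 and 2 was 5.75 for Ciao3, 5.09 for Nubp1, 1.81 for Ciao1 and 1.73 for Ndor1. It was 0.938 for Mms19, 0.919 for Ciao2a, 0.857 for Nubp2, 0.791 for Ciapin1 and 0.647 for Ciao2b. Over 13586 tested genes the median ratio was 1.025. The same library held the macrophage and leukocyte RNA described above, at 909 CPM summed over its markers, and the part of that RNA in these ratios was not tested.

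Partners in the pathway, and the CIAO2 paralogs, were also compared as ratios within a library, which needs no scaling between libraries. Of 5 pairs, the TPM ratio of Ciao2b to Ciao1 was the only one with separated groups. It was 69.2, 103 and 75.8 in the libraries labelled KO and 63.8, 42.3 and 30.6 in WT. The log2 ratio differed by 0.90, with p = 0.1 in the exact two-sided permutation test, the smallest that 3 against 3 libraries allow, and 0.5 after adjustment over the 5 pairs. The transcript length assigned to Ciao1 enters this ratio. RSEM, the tool that made the counts, reports for each gene a mean transcript length weighted by the estimated isoform mix, and for Ciao1 this was 2569, 2755 and 1914 bases in the libraries labelled KO and 1545, 1435 and 2289 bases in WT. As plain counts, without length, the ratio of Ciao2b to Ciao1 was 19.5, 26.8 and 28.8 in the libraries labelled KO. In WT it was 31.5, 23.1 and 9.45, and the groups overlapped. The log2 difference in plain counts was 0.38 (exact permutation p = 0.7). The part of the length in the separation was not tested. The other 4 pairs had differences of 0.99 (Nubp1 to Nubp2), -0.22 (Ciapin1 to Ndor1), -0.11 (Ciao2a to Ciao2b) and -0.06 (Ciao2b to Mms19) on the log2 scale, with exact permutation p between 0.3 and 0.9. As plain counts the difference for Nubp1 to Nubp2 was 0.42 (exact permutation p = 0.8), that for Ciapin1 to Ndor1 was -0.02, and that for Ciao2b to Mms19 was 0.57.

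The mean transcript length varied more among libraries for the rare members than for the abundant ones. Ciao2b had mean lengths of 889 to 897 bases in the libraries labelled KO and 892 to 897 bases in WT. Ciapin1 had 1764.5, 1822.9 and 1787.9 bases in the libraries labelled KO and 1705.2, 1758.2 and 1751.9 bases in WT. Ciao2a had 1240 bases in all 6 libraries, as a gene with a single listed transcript always would. How many transcripts were listed was not examined. Mms19 had 2309, 2226 and 1822 bases in the libraries labelled KO and 3803, 2081 and 3911 bases in WT. In TPM, which divides by this length, Mms19 averaged 3.46 ± 0.705 in the libraries labelled KO and 2.74 ± 1.05 in WT (SD, n = 3 each), whereas in CPM it averaged 5.35 ± 1.54 and 5.82 ± 0.212. The direction of Mms19 thus depended on the unit. Ciao3 had 2062 bases in all 3 libraries labelled KO and 2279, 2555 and 2503 bases in WT, on the few counts given above. No test was made of these lengths.

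**Figure D5:**
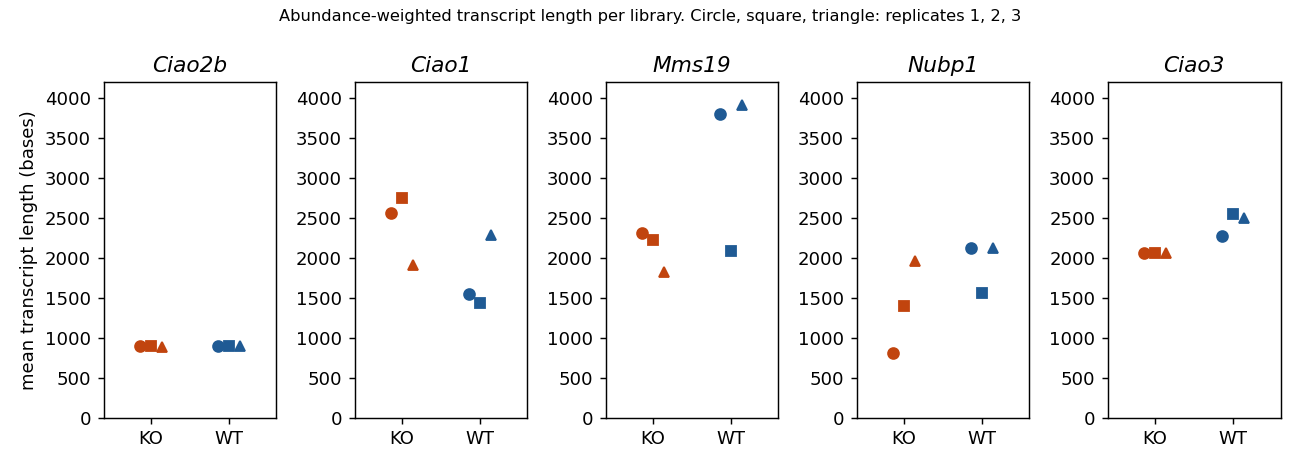
Mean transcript length in bases (vertical axis), weighted by RSEM's isoform estimates, for 5 genes in each library, with libraries labelled KO in orange on the left and WT in blue on the right. Ciao2b stays at 889 to 897 bases in all 6 libraries, while Mms19 reaches 3803 and 3911 bases in WT replicates 1 and 3.

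The other genes along the route gave no call. The list of 9 pathway genes outside the core had 0 called of 9 tested, where 0.0146% of all tested genes were called. Their median log2 fold change was -0.12, beside -0.04 over all genes tested, with 3 positive and 6 negative. Groups did not overlap for 2 of the 9 (Gfer and Lto1), both lower in the libraries labelled KO, beside 5.96% of all tested genes. Among the mitochondrial suppliers, the cysteine desulfurase gene Nfs1 had 44.5 ± 2.23 CPM in the libraries labelled KO and 45.6 ± 4.71 CPM in WT, and the scaffold gene Iscu had 110 ± 9.34 and 107 ± 9.88 CPM (SD, n = 3 each). Gfer, a sulfhydryl oxidase of the intermembrane space, had 12.4, 12.4 and 8.95 CPM in the libraries labelled KO and 16.9, 14.1 and 15.8 CPM in WT. Its groups did not overlap, and it did not pass the test (-0.47 on the log2 scale, SE 0.23, adjusted p = 0.766, edgeR).

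The cytosolic partners were alike in not passing. Glrx3, a glutaredoxin that carries clusters in the cytosol, had 10.6, 11.6 and 9.34 CPM in the libraries labelled KO and 8.05, 7.29 and 18.8 CPM in WT. Its partner Bola2 had 2.58, 3.58 and 1.76 CPM in the libraries labelled KO and 3.81, 1.02 and 7.59 CPM in WT, and WT replicate 3 was the highest library for both. LTO1 and YAE1, which in yeast link the targeting complex to the ribosome recycling factor ABCE1, differed widely in level. Lto1 had 0.683, 0.504 and 0.0374 CPM in the libraries labelled KO and 1.19, 1.35 and 5.86 CPM in WT. Its groups were separated (-2.77 on the log2 scale, SE 1.07, adjusted p = 0.766, edgeR). These values rest on few reads, with 15.6, 9 and 1.06 expected counts in the libraries labelled KO. In WT replicates 1, 2 and 3 there were 27.1, 27.8 and 170. Without WT replicate 3 the log2 fold change of Lto1 was -1.63 (SE 1.04, adjusted p = 0.620, edgeR). Yae1d1 had 120 ± 6.84 CPM in the libraries labelled KO and 109 ± 10.3 CPM in WT (SD, n = 3 each). Nubpl, a mitochondrial relative of the scaffold genes that serves complex I, had 9.36 ± 1.11 CPM in the libraries labelled KO and 11.0 ± 3.04 CPM in WT.

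Of 22 client enzymes that carry cytosolically assembled clusters, 18 were tested and 0 were called, where 0.0146% of all tested genes were called. Their median log2 fold change was -0.07, with 6 positive and 12 negative. The 4 with the smallest p are named. The DNA helicase gene Ddx11 had 14.9, 11.1 and 9.73 CPM in the libraries labelled KO and 16.8, 19.0 and 13.9 CPM in WT (-0.47 on the log2 scale, SE 0.25, adjusted p = 0.767, edgeR). Aco1, which encodes iron regulatory protein 1, the client of the CIAO2A branch, had 4.95, 4.09 and 6.42 CPM in the libraries labelled KO and 7.14, 6.71 and 8.38 CPM in WT (-0.52, SE 0.29, adjusted p = 0.781, edgeR). The telomere helicase gene Rtel1 had 4.03, 4.93 and 4.87 CPM in the libraries labelled KO and 6.48, 5.35 and 6.73 CPM in WT (-0.43, SE 0.28). Brip1, a helicase of crosslink repair, was abundant at 280, 269 and 273 CPM in the libraries labelled KO and 247, 271 and 216 CPM in WT (0.16, SE 0.12). In CPM, groups did not overlap for Aco1, Rtel1 and Ercc2, all lower in the libraries labelled KO. That is 3 of 18 beside 5.96% of all tested genes. In TPM, which divides by the assigned length, Rtel1 averaged 6.94 in the libraries labelled KO and 6.62 in WT. Ercc2 averaged 2.44 and 2.15 TPM, and Aco1 2.31 and 3.78 TPM, in the same order. The direction of Rtel1 and Ercc2 thus depended on the unit. Pold1, Dph1, Dph2 and Dpyd had too few counts to be tested.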

How the data were processed

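Per the file headers, the authors deposited RSEM expected counts, TPM and mean transcript lengths per Ensembl gene. The submitters' processing notes list RSEM 1.3.1, STAR 2.6.1c, DESeq2 1.42.1, Trim Galore 0.4.5 and the build mm10/GRCm38, with no role for each. Neither the annotation used nor whether counting was stranded is stated in the sources used here. Depth was 17792157 to 30240350 expected counts per library. Expected counts were rounded and tested with edgeR 4.0.16 in R 4.3.3 (filterByExpr, TMM factors, genotype as the only term, Benjamini-Hochberg over all tested genes). The SE was the log2 fold change over the root of F. CPM used TMM-scaled library sizes. Ratios are of TPM, and their log2 differences used TPM plus 0.1. DESeq2 1.42.0 and limma 3.58.1 were alternatives. The edgeR, DESeq2 and limma-voom steps were checked on simulated counts. These had the same dispersion (spread between libraries) for every gene, and changes were placed only in better-counted genes. The check does not show how well a change in a rare gene such as Ciao3 would be found. No 2 libraries were identical. The members and all gene lists were chosen with earlier results of these data known. The genes named were the 9 members, Isca2, the pathway genes (values of 1 of these 9 are not reported here), the 4 clients with the smallest p and the first markers of each list; the other markers, Ercc2 and the overlapping genes were added after their values were seen. Symbols were found for 55144 IDs. Coordinates and upstream sequences came from RefSeq tables of GRCm38.p6, which matched all 9 genes.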

Additional observations from a re-analysis of the deposited data

How the results depend on the processing

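In all 17 alternatives run, 0 of the 9 genes were called. Over all genes, edgeR called 0 higher and 2 lower, DESeq2 81 and 20, limma-voom with library weights 2 and 6, limma on log2(TPM + 1) 7 and 5, limma on log2(TPM + 0.1) 8 and 5, and DESeq2 without WT replicate 3 426 and 76. Leaving out 1 library in turn gave 0 to 81 higher and 1 to 11 lower, with the high ends without WT replicate 3. Of 154 alternative values for single members 127 kept their direction. Every member that changed sign lay between -0.12 and 0.08 in 6 libraries, apart from Ciao3 with Haghl added. Library totals, under which the median of all genes was -0.10, gave -0.022 for Ciapin1, -0.028 for Ndor1 and -0.035 for Nubp1. Limma-voom gave -0.10 for Ndor1, library weights -0.035 for Ciapin1 and 0.39 for Ciao1, log2(TPM + 1) -0.10 for Ciapin1 and 0.28 for Mms19, log2(TPM + 0.1) -0.10 and 0.36 (with Ciao1 at -0.51 and -0.59 in these 2), and DESeq2 without WT replicate 3 -0.071 for Ciapin1 and 0.32 for Ciao1. Leaving out 1 library gave -0.071 to 0.10 for Ciapin1, -0.52 to 0.35 for Ndor1, -0.48 to 1.32 for Nubp1, -0.16 to 0.029 for Nubp2, -0.27 to 0.32 for Ciao1 and -0.30 to 0.10 for Mms19. Ciao2a (0.19 to 0.37) and Ciao2b (0.19 to 0.55) stayed positive in all 17. Ciao3 stayed negative (-4.30 to -0.76) in the 16 that tested it, since 1 CPM in 3 libraries removed it. Adding Haghl counts, chosen after the data were seen, gave -1.17, and 0.225 without WT replicate 3. The cause of these sign changes was not tested.

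The replicate number as a block called 0 members, 0 genes higher and 2 lower, with Ndor1 at -0.0013 and Ciao1 at 0.014. Deviations of same-numbered libraries correlated at 0.0632, -0.111 and 0.00835 over 13680 genes, so the numbers were not taken as pairs. For the ratios, leaving out 1 library gave -0.62 to 0.32 for Ciapin1 to Ndor1, -0.24 to 0.057 for Ciao2a to Ciao2b, -0.27 to 0.12 for Ciao2b to Mms19, 0.64 to 1.17 for Ciao2b to Ciao1 and 0.52 to 1.71 for Nubp1 to Nubp2. Ciao2b to Mms19 was 0.028 with 1 TPM added and 0.57 in plain counts, an alternative chosen after the data were seen. With 3 libraries a group no exact permutation test can fall below 0.1. Nubp1, Ndor1 and Ciao3 had fewer than 130 counts in every library. For Ciao3 the spread among WT libraries was wider than counting error, at 3.75 to 5.32 CPM in WT replicate 3 against 0.372 to 1.35 CPM in the other 2.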
